A study of Mus musculus with 4 samples.

Results

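The comparison described here sets RNA immunoprecipitated with an hnRNP antibody (heterogeneous nuclear ribonucleoprotein) against RNA from the IgG control precipitation, which takes 2 of the 4 arrays of the study. The tissue was intestinal epithelium from adult mice of the C57BL/6 strain, treated with ultraviolet light, which ties RNA to the proteins bound to it. The recovered RNA was copied with random primers and read on Mouse Gene 1.0 ST arrays from Affymetrix (CLIP-chip). One array each was made for input RNA (no antibody), for IgG, for an antibody to the RNA-binding protein Msi1 (Millipore AB5977) and for the hnRNP antibody. No other genotype or treatment is named in the labels, and the hnRNP targeted, the stretch of intestine and the number of mice were not given in the sources used here. Each array carried RNA combined from 2 experiments, with 100 ng labelled, so there was 1 value per gene and group. Differences between the arrays were therefore described by size and not tested, and the single array per group limits the precision of every value. As 100 ng was labelled for every array, a difference is in a transcript's share of the labelled RNA. It does not measure the amount that an antibody recovered. In bulk tissue, fewer cells of a type and less RNA per cell cannot be told apart.

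The hnRNPs are abundant nuclear proteins that coat transcripts as RNA polymerase makes them. They guide splicing, the choice of polyadenylation site and RNA export, and some of them bind noncoding RNAs in the nucleus. An IgG precipitation shows what the beads and a nonspecific antibody recover.

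Of 19937 genes with a probe set of their own, 7917 (39.7%) were compared, because they stood above the detection floor on the hnRNP array or the IgG array. The floor is the 95th percentile of the olfactory and vomeronasal receptor probe sets of an array, genes that gut epithelium is not known to express, and it was 5.17 on the hnRNP array and 5.26 on the IgG array in log2 signal. Both arrays exceeded their floors for 4247 of the compared genes, hnRNP alone for 2313 and IgG alone for 1357. Where the dimmer value lay below its floor, the fold is given as a lower bound (at least), taken against the floor. The input array had 11786 genes above its floor, the Msi1 array 9527, the hnRNP array 6560 and the IgG array 5604. All 10 defining markers of gut epithelium, among them Epcam and Cdh1, were above the floor on input, with a median of 10.4, and 9 of them were above it on hnRNP and 7 on IgG.

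The hnRNP precipitation differed little from IgG for most genes. The median difference, hnRNP minus IgG, was 0.08 log2 units over the compared genes, with quartiles of -0.34 and 0.45, and 89.2% of the genes lay within 2-fold. In hnRNP, 496 genes (6.26%) were at least 2-fold above IgG and 357 (4.51%) were at least 2-fold below it, which is what higher and lower mean in the counts that follow. With values below a floor raised to that floor, 135 genes (1.71%) remained higher and 93 (1.17%) lower, because for 408 of the 496 higher genes IgG lay under its floor, and for 300 of the 357 lower genes hnRNP did. The receptor genes, which set the floor, give a background. Of the 91 receptor genes that passed a floor on hnRNP or IgG, as the compared genes had to, 11 were higher and 17 lower. Without that condition, 5.44% of 1194 receptor genes were higher and 8.29% lower, their median being -0.09. With values raised to floors 1 receptor gene was higher and 1 lower, each necessarily among the 91. So few calls do not show whether the floored calls among the compared genes exceed the receptor background. Calls on deposited values were thus no more frequent among the compared genes than among those 91 receptors, so single genes are ranked below by the floored difference, and list counts are on deposited values unless floors are named. For size, the Msi1 precipitation, which shares the IgG control, had 1927 of 10368 genes (18.6%) higher and 716 (6.91%) lower.

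**Figure D1:**
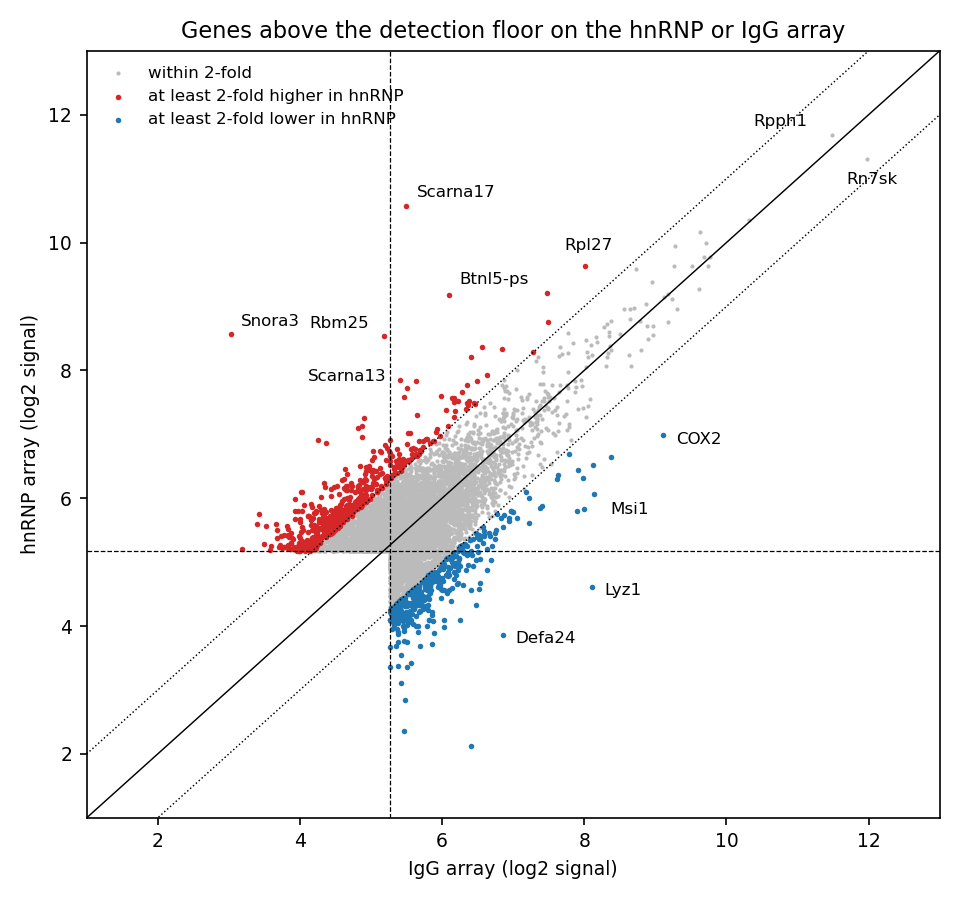
Each point is 1 gene, placed by its log2 signal on the IgG array (x axis) and on the hnRNP array (y axis). Grey points lie within 2-fold and coloured points are the 496 higher and the 357 lower genes. Scarna17 and Snora3 stand far above the diagonal and Lyz1 and Defa24 far below it.

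The RNAs that stood out most were small RNAs of the nucleolus and the Cajal body. These guide the chemical modification of ribosomal RNA (Snora and Snord) or of the small nuclear RNAs of the spliceosome (Scarna). Scarna17, a Cajal body RNA, read 8.91 on input, 5.49 on IgG, 8.21 on Msi1 and 10.58 on hnRNP. The hnRNP array was the highest of the 4 and the difference from IgG was 5.08, a 33.9-fold excess. Snora3, an H/ACA nucleolar RNA, read 10.37 on input, 3.03 on IgG, 5.87 on Msi1 and 8.57 on hnRNP. The Snora3 difference of 5.54 was the largest of all genes compared, and because IgG lay below its floor the excess is at least 9.87-fold. A further probe set for Snora3 read 3.83 on IgG and 4.09 on hnRNP, both below their floors, and 6.87 on input. Scarna13 read 8.19 on input, 5.63 on IgG, 8.18 on Msi1 and 7.83 on hnRNP. That is a difference of 2.20, or 4.59-fold, and the Msi1 value for Scarna13 lay slightly above the hnRNP value.

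In all, 54 small nucleolar and Cajal body RNA genes were on the array. Of these, 43 were above the floor on input, 23 on Msi1, 12 on hnRNP and 7 on IgG. Among the 12 compared, 6 (50.0%) were at least 2-fold higher in hnRNP and 0 lower, and with floors 3 remained higher, beside 6.26% and 1.71% of all compared genes. Their median difference was 0.97 (0.40 with floors). Since 5 of the 12 were compared only because the hnRNP value passed its floor, all 54 were also read without a floor. Their median was then 0.18, with 7 of the 54 past 2-fold upward and 2 downward. As a background, the same count without a floor over all 19937 genes gave 794 upward and 760 downward. Snord55, Snord104 and Snora33, all with IgG below the floor, differed by 1.52, 1.25 and 1.12 (at least 1.90-, 1.39- and 1.37-fold). The remaining 6 of the 12 compared lay within 2-fold, from Snora74a at 0.81 to Snord53 at -0.42. A high input level did not always come with signal in the precipitations. Of 13 small RNAs with an input signal over 8, 8 were compared and 4 were higher, and Snord57 read 10.32 on input but 4.16 on IgG and 4.10 on hnRNP, below both floors.

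Many small nucleolar RNAs are cut from introns of a host gene, and by RefSeq's gene positions 30 of the 54 lay within a gene that was also measured. Rpl27a, a ribosomal protein gene that holds Snora3, read 8.03 on IgG and 7.28 on hnRNP, a difference of -0.75. Rps12, host of Snora33, differed by -0.46. Wdr43, host of Snord53 (-0.42), was below both floors, as was Rplp2, host of Snora52 (0.12).

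**Figure D2:**
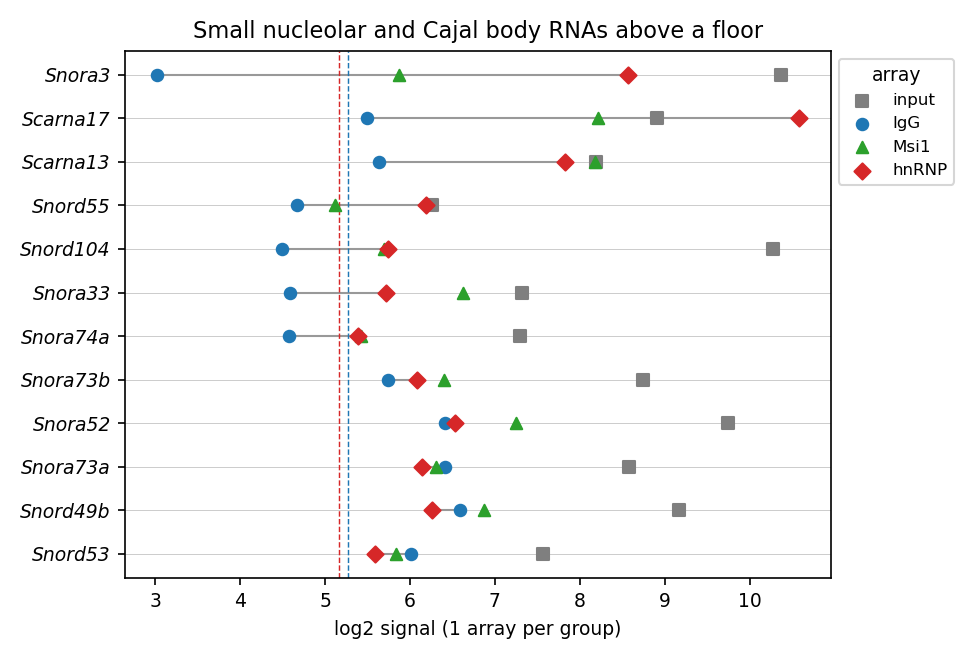
Log2 signal (x axis) of the 12 small nucleolar and Cajal body RNAs above a floor, with 1 marker per array. The hnRNP marker lies at 10.58 for Scarna17, above its input value of 8.91, while for Snora3 it lies at 8.57 between IgG at 3.03 and input at 10.37.

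Other nuclear and noncoding RNAs showed no common direction. Malat1, a nuclear-retained transcript of splicing speckles, read 9.43 on input, 5.99 on IgG, 9.82 on Msi1 and 7.60 on hnRNP. Its excess over IgG was 3.06-fold (1.61), and it was lower on hnRNP than on input or Msi1. Gas5, a noncoding host of small nucleolar RNAs, read 7.03 on input, 3.82 on IgG, 9.20 on Msi1 and 5.57 on hnRNP. The Gas5 difference of 1.75 is at least 1.24-fold once the floor is used, and its 4 probe sets differed by 1.75, 1.06, -0.03 and -0.37. The other 7 noncoding RNAs compared lay within 2-fold, and 2 of 9 in all were higher, with a median of 0.01. Rn7sk, the RNA that restrains the elongation factor P-TEFb, and Rpph1, the RNA of ribonuclease P, were the brightest genes on the hnRNP array at 11.31 and 11.69. Their IgG values were close to these, with differences of -0.66 and 0.20. Terc, the telomerase RNA, differed by -0.11, the Y RNA Rny3 by -0.07 and Rmrp by -0.06.

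Among protein-coding genes, Rbm25 led the floored ranking. It encodes a nuclear RNA-binding protein that takes part in splicing. Rbm25 read 6.78 on input, 5.19 on IgG, 6.80 on Msi1 and 8.54 on hnRNP, a difference of 3.35 or at least 9.66-fold. The hnRNP value was the highest of the 4 arrays. Its 4 probe sets differed by 3.35, 1.34, 0.26 and 0.02, so 2 of the 4 were past 2-fold.

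The other 14 of the 15 highest genes followed at lower sizes. Btnl5-ps, a butyrophilin-like pseudogene, read 6.09 on IgG and 9.18 on hnRNP (8.52-fold), with 9.35 on input and 10.46 on Msi1. Tfb2m, a mitochondrial transcription factor, read 5.41 on IgG and 7.84 on hnRNP (5.40-fold), with 7.57 on input and 9.86 on Msi1. Both were thus higher still in the Msi1 precipitation. The other probe set of Tfb2m differed by -0.76, and with its probe sets averaged it was within 2-fold (0.83). Those of Btnl5-ps differed by 1.04 and -0.45. Rps19, a protein of the small ribosomal subunit with 1 probe set, read 8.42 on input, 5.46 on IgG, 6.36 on Msi1 and 7.58 on hnRNP, a 4.36-fold excess. Nsa2, a ribosome assembly factor, was at least 3.97-fold higher (2.35), with 4.90 on IgG and 7.26 on hnRNP. Its other 3 probe sets did not show this and differed by -0.93, 0.21 and -0.70. Actr3, a subunit of the complex that nucleates branched actin filaments, was at least 3.65-fold higher (2.26), with 4.87 on IgG and 7.13 on hnRNP.

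Further members of the 15 had signal above both floors. Polr2c, a subunit of RNA polymerase II, read 6.56 on IgG and 8.37 on hnRNP (3.49-fold), yet differed by -0.87 on its other probe set. Trmt112, a cofactor of methyltransferases that act on RNA and protein, read 6.41 and 8.21 (3.47-fold), with 0.23 and -0.60 on its other probe sets. Zfp768, a zinc finger gene, read 5.80 on input, 5.65 on IgG, 6.52 on Msi1 and 7.30 on hnRNP (3.14-fold). The ribosomal protein gene Rpl21 read 7.47 on IgG and 9.21 on hnRNP (3.34-fold), and its 9 probe sets ranged from -0.34 to 4.99. Rpl27 read 8.01 on IgG and 9.63 on hnRNP (3.06-fold), with 0.72 and 0.74 on its other probe sets, so all 3 lay above 0. The last 3 genes had IgG at or below its floor. Cks2, a partner of cyclin-dependent kinases, differed by 2.09 (at least 3.23-fold), Acp1, a protein phosphatase, by 1.65 (at least 3.14-fold) and Uba1y, a ubiquitin-activating enzyme gene of the Y chromosome, by 2.65 (at least 3.11-fold). Each of these 3 lay within 2-fold on all of its other probe sets.

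Over the 15 genes, 9 folds were measured above both floors and 6 were lower bounds. The hnRNP value lay below input for 7 and below Msi1 for 5. As 11 of the 15 had several probe sets, the agreement of probe sets was counted over all calls. Of the 496 higher genes, 51 had several probe sets, and in 9 of these another one was also at least 2-fold higher. Among the 18 in which another probe set passed a floor, it had the same sign in 14 and was past 2-fold in 3. Of the 357 lower genes, 34 had several probe sets, and among the 16 with another above a floor it had the same sign in 7.

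**Figure D3:**
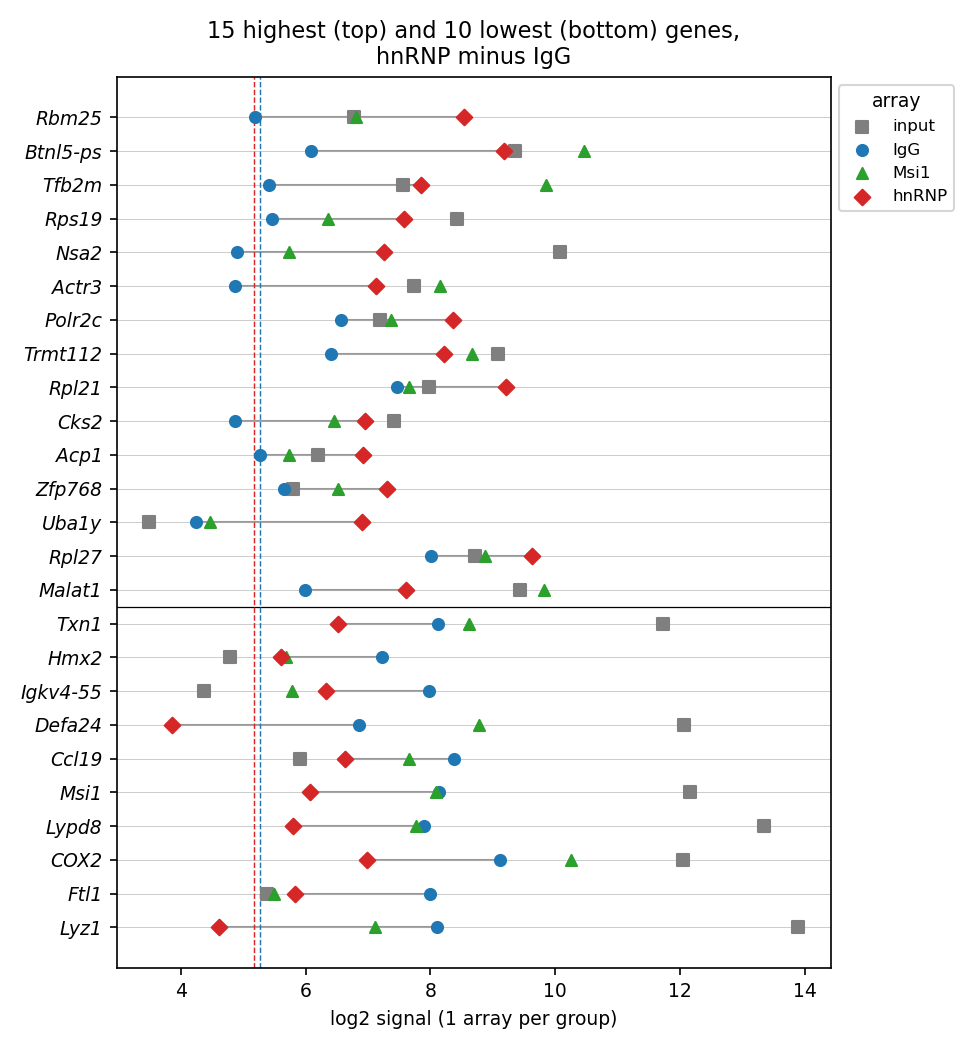
Log2 signal (x axis) on each of the 4 arrays for the 15 highest and 10 lowest genes by hnRNP minus IgG, with 1 marker per array and values below a floor included. Rbm25 (hnRNP 8.54) and Uba1y (6.90) have their brightest value on hnRNP, while Lyz1, at 13.89 on input, reads 8.10 on IgG and 4.61 on hnRNP.

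To show what the hnRNP array held beyond every other array, each gene's hnRNP value was set against the highest of input, IgG and Msi1, with floors. It exceeded all 3 by at least 2-fold for 29 of the ranked genes, which are a part of the 7917 compared. Of the 29, 22 were above the floor on input. The same count was not made for the other arrays, so the 29 have no background. Against input alone, on deposited values, hnRNP was at least 2-fold higher for 18.7% of the 12879 genes above a floor on either array. Rbm25 led with an excess of 1.74, followed by Uba1y with 1.64. Cox8c, a subunit of cytochrome c oxidase known from testis, read 4.32 on input, 5.14 on IgG, 5.03 on Msi1 and 6.73 on hnRNP. Gcnt7, a glycosyltransferase gene, read 4.28, 5.21, 4.96 and 6.60 on the same arrays. These were dim in the starting RNA, and Maneal, an endomannosidase-like gene, was below the input floor at 4.01 and read 6.69 on hnRNP. Carnmt1, which methylates carnosine, stood higher on input, with 6.09 there, 6.16 on IgG, 6.36 on Msi1 and 7.56 on hnRNP. Mrpl23, a mitochondrial ribosomal protein, read 6.66, 6.49, 6.65 and 7.83. The other probe set of Mrpl23 read 7.21, 4.86, 3.98 and 5.22, so there hnRNP lay below input. Rpl21 (1.24), Igsf10, an immunoglobulin superfamily gene (1.18), and Kcnk4, a potassium channel gene (1.16), completed the 10. On their other probe sets, hnRNP minus IgG was 0.18 and 0.28 for Igsf10 and 1.04 and 0.51 for Carnmt1.

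Of the 10 genes furthest below IgG, 6 were bright on input. Lyz1, the lysozyme of Paneth cells, read 13.89 on input, 8.10 on IgG, 7.11 on Msi1 and 4.61 on hnRNP. It was the brightest protein-coding gene of those measured on input, and its hnRNP value lay below the floor, so it was at least 7.66-fold lower (-3.49). Defa24, a Paneth cell defensin, read 12.06 on input, 6.85 on IgG, 8.78 on Msi1 and 3.87 on hnRNP, at least 3.21-fold lower (-2.98). Lypd8, a secreted protein of the gut surface that keeps flagellated bacteria away, read 13.35, 7.90, 7.77 and 5.79 (4.29-fold lower). The mitochondrially encoded COX2, cytochrome c oxidase subunit 2, read 12.04 on input, 9.11 on IgG, 10.25 on Msi1 and 6.99 on hnRNP (4.37-fold lower). ND3, another mitochondrially encoded gene with a like input level of 12.13, did not share this, with 7.19 on IgG and 7.23 on hnRNP. The Msi1 transcript itself read 12.16 on input, 8.14 on IgG, 8.09 on Msi1 and 6.07 on hnRNP (4.19-fold lower), and its paralog Msi2 differed by 0.27. Txn1, a thioredoxin, read 11.72, 8.13, 8.62 and 6.52 (3.04-fold lower).

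The other 4 of the 10 lowest genes were dim on input and bright on IgG. Ftl1, the ferritin light chain, read 5.38 on input, 8.0 on IgG, 5.49 on Msi1 and 5.84 on hnRNP (4.47-fold lower). Igkv4-55, an immunoglobulin kappa gene, read 4.36, 7.98, 5.78 and 6.32 (3.15-fold lower), and the homeobox gene Hmx2 read 4.79, 7.22, 5.69 and 5.61 (3.06-fold lower). In these genes the IgG array was the highest of the 4, and hnRNP and Msi1 lay between it and input. Ccl19, a chemokine, read 5.91 on input, 8.38 on IgG, 7.66 on Msi1 and 6.64 on hnRNP (3.34-fold lower). Its 4 probe sets disagreed, at -1.74, -1.52, -0.72 and 6.36, and the one at 6.36 read 1.31 on IgG and 7.68 on hnRNP.

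The most abundant transcripts of the starting RNA were lower in hnRNP than in IgG as a group. Of the 55 compared genes with an input signal over 11, 0 were higher and 17 (30.9%) lower, and 13 remained lower with floors. Their median difference was -0.47, and 40 lay below 0, whereas the 7862 compared genes at or under 11 had a median of 0.08, 496 higher and 340 lower (4.32%). Of the 14 with an input signal over 12, 8 were at least 2-fold lower and 12 lay below 0, with a median of -1.40. Besides those named, Actb, cytoskeletal actin, read 12.64 on input, 7.40 on IgG, 8.80 on Msi1 and 5.87 on hnRNP (-1.53). The chaperone Hspa8 differed by -1.86, and its 3 probe sets were alike at -1.86, -1.54 and -1.89. Zg16, a lectin of goblet cells, differed by -1.27. Rpph1 (0.20), ND3 (0.04), Eef1a1, a translation elongation factor (-0.36), and Krt8, an epithelial keratin (-0.48), stayed within 2-fold.

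At input levels from 11 to 12, 9 of 41 genes (22%) were lower and the median was -0.42, among them the brush border peptidase Anpep (-1.38), the starch-digesting enzyme gene Mgam (-1.64), the goblet cell disulfide isomerase Agr2 (-2.14), the mucosal scavenger receptor gene Dmbt1 (-1.10) and B2m (-1.01). For Mgam, Agr2, Dmbt1 and B2m the hnRNP value lay below its floor. With floors they differed by -0.70, -0.69, -0.66 and -0.40, within 2-fold. The highest differences in this input range were below 2-fold, with Rpl41 at 0.82, Rbp2, a vitamin A carrier of enterocytes, at 0.80 and Tpt1 at 0.67. Below that, the median stayed between -0.11 (input 10 to 11) and 0.09 (input 4.09 to 6). On IgG these genes were also bright, with a median of 7.76 for those over 12 on input and 6.22 for those from 11 to 12, against 5.51 to 5.55 for those from 4.09 to 10. Among genes with a mean of both arrays over 6.5, the 23 with input over 11 had a median of -0.45, with 0 higher and 6 lower (26.1%), and the 504 with input at or under 11 had a median of 0.10, with 34 higher (6.75%) and 9 lower (1.79%). In the Msi1 precipitation, which shares the IgG control, the genes over 12 on input had a median of 1.19 above IgG.

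**Figure D4:**
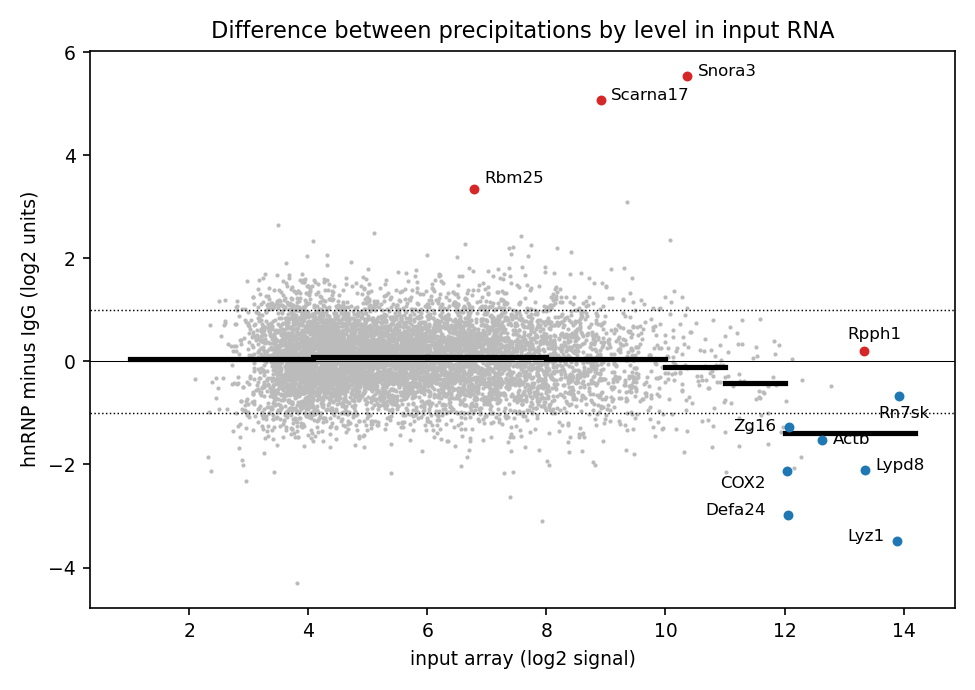
Difference hnRNP minus IgG in log2 units (y axis) against log2 signal on the input array (x axis), 1 point per compared gene, with the median of each input bin drawn as a bar. The bars stay near 0 up to an input of 10 and reach -0.42 for inputs of 11 to 12 and -1.40 above 12.

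Markers of secretory cells held several of these genes. Of 9 goblet cell markers compared, 3 were at least 2-fold lower, 0 higher and 8 below 0, with a median of -0.58 beside 0.08 for all genes compared, of which 4.51% were lower. Agr2 read 11.01 on input, 5.86 on IgG, 7.08 on Msi1 and 3.72 on hnRNP, and Zg16 read 12.08, 7.63, 9.86 and 6.36. Clca1, a goblet cell secreted protein (-1.16), was the third, and its hnRNP value of 4.20 lay below the floor. With floors only Zg16 remained past 2-fold. The mucin Muc2 differed by -0.58, Tff3, a trefoil peptide, by -0.36 and Spink4, a protease inhibitor, by 0.13. Of 6 Paneth cell markers compared, Lyz1 and Defa24 were lower and 4 lay within 2-fold, from Reg3g, an antibacterial lectin (-0.74), to Guca2b, the uroguanylin gene (0.81), with a median of -0.48. Over all 10 Paneth markers on the array, with no floor, the median was 0.33, so the direction of this list turned with the floor. The summed signal on a linear scale was 829 on IgG and 521 on hnRNP for the 12 goblet markers on the array, and 706 and 423 for the 10 Paneth markers. The lower Paneth sum came from Lyz1 and Defa24, and the other Paneth markers together summed higher on hnRNP than on IgG.

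The other epithelial lists held 0 to 2 members past 2-fold. Of 18 absorptive enterocyte markers compared, 2 were lower, namely Anpep and Slc2a2, a basolateral sugar transporter (-1.46), and 0 were higher, with a median of -0.20. Cdx1, an intestinal homeobox factor (0.89), and Rbp2 (0.80) were the highest. None of 8 stem cell markers, 10 enteroendocrine markers or 5 tuft cell markers passed 2-fold, with medians of -0.14, 0.05 and -0.59. Of the epithelial defining markers, Cldn7, a tight junction protein, was higher (5.36 on IgG, 6.52 on hnRNP, 2.23-fold) and Krt18 lower (2.02-fold), with a median of -0.42 over 9 and summed signals of 1010.2 on IgG and 838 on hnRNP.

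Markers of cells other than epithelium were mostly below the floors. Of 19 immune cell markers, 12 were above the floor on input, 2 on IgG and 3 on hnRNP, with summed signals of 468 on IgG and 501 on hnRNP, and the pan-leukocyte gene Ptprc was below both floors. Of 15 stroma and muscle markers, 5 were above it on input, 6 on IgG and 7 on hnRNP, with summed signals of 614 and 594, and Acta2, smooth muscle actin, was lower (-1.55, at least 2.09-fold). Of 11 enteric neuron and glia markers, 2 were above it on input, 1 on IgG and 3 on hnRNP, with summed signals of 282 and 289. The 12 immunoglobulin genes summed to 563 on IgG and 339 on hnRNP, and the 2 compared were Igkv4-55 and Igkv8-30 (-0.10). The part of these markers in the other differences was not tested.

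Transcripts that encode hnRNPs themselves were compared because several hnRNPs are known to bind their own messenger RNAs. Of 25 on the array 14 were compared, 4 were higher and 1 lower, with a median of 0.36, beside 6.26% and 4.51% of all genes compared, and with floors 1 was higher and 1 lower. As 3 of the 4 passed through the hnRNP value alone, the median of all 25 without a floor is also given, and it was 0.058. Ptbp1, the polypyrimidine tract-binding protein, was the one above both floors, with 9.28 on input, 5.36 on IgG, 4.62 on Msi1 and 6.58 on hnRNP (2.33-fold), though its other probe set differed by -0.20. Hnrnpm (1.34), Hnrnpa2b1 (1.22) and Hnrnpd (1.16) had IgG below its floor, so their excess is at least 1.18-, 1.14- and 1.24-fold. For Hnrnpa2b1 the hnRNP value of 5.46 was also far below 9.06 on input and 8.80 on Msi1. Hnrnph2 was 2.58-fold lower (-1.37), with 7.06 on IgG and 5.69 on hnRNP, and its other probe set differed by 1.31 in the opposite direction. The 9 others lay within 2-fold, from Hnrnpdl (0.70) and Hnrnpf (0.47) through Hnrnpa0 (0.36), Syncrip (0.36), Hnrnpab (0.04), Pcbp1 (-0.18), Hnrnpu (-0.23) and Hnrnpul1 (-0.27) to Hnrnpl (-0.80). The hnRNP array was below Msi1 for 13 of the 14.

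Other genes of RNA processing were mostly within 2-fold. Of 24 other RNA-binding proteins compared, 0 were higher and 2 lower, with a median of -0.13. Those were the Msi1 transcript and the cold-inducible Rbm3, which read 8.0 on input, 6.03 on IgG, 7.54 on Msi1 and 4.09 on hnRNP (at least 1.81-fold lower). The other probe set of Rbm3, brighter on input at 8.59, differed by -0.09. Ybx1, a messenger RNA packaging protein, differed by 0.96. Among 21 core spliceosome genes, Snrpb, an Sm protein, was 2.35-fold lower (7.23 on IgG, 6.00 on hnRNP) and Lsm8 at least 1.15-fold higher, with a median of 0.22. None of 7 SR splicing factors passed 2-fold, from Srrm2 (0.74) to Srsf10 (-0.93). None of the 10 Musashi target genes compared did so either, from Ccnd1 (0.77), the G1 cyclin, to Notch1 (-0.53).

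Ribosomal and mitochondrial lists held calls in both directions, beside 6.26% higher and 4.51% lower of all genes compared. Of 46 cytosolic ribosomal protein genes, 5 (10.9%) were higher, among them Rps19, Rpl21 and Rpl27, and 4 (8.70%) lower. Their median was 0.10, and with floors 3 were higher and 3 lower. Rpl28 read 11.98 on input, 6.76 on IgG, 7.43 on Msi1 and 5.5 on hnRNP (2.40-fold lower), Rpl10 was 2.48-fold lower (-1.31) and Rpl9 at least 2.39-fold lower (-1.31). Ribosomal protein genes have many near-identical processed copies that can share probes, and the 5 probe sets of Rpl10 ranged from -2.47 to 1.20, so these single values are uncertain. Of 53 mitochondrial ribosomal protein genes 5 (9.43%) were higher and 3 (5.66%) lower, with a median of -0.03. With floors 3 were higher and 1 lower. Mrpl39 (1.60, at least 2.59-fold) and Mrpl55 (1.48, at least 2.77-fold) led, with Mrpl15 (-1.50) and Mrpl22 (-1.24) at the other end. Of 56 nuclear genes of oxidative phosphorylation 2 (3.57%) were higher, Cox8c and Atp5l (1.26). Another 2 (3.57%) were lower, the ATP synthase subunit Atp5b (-1.03) and cytochrome c, Cycs (-1.36), and the median was -0.14. With floors 2 were higher and 1 lower, and Cycs was at -0.64. The 3 probe sets of Cycs ranged from -1.36 to 1.43 and the 5 of Atp5l from -1.21 to 1.26, past 2-fold in both directions.

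Among the remaining lists, solute carriers and zinc finger genes had many calls that rested on a value below its floor. Of 134 solute carriers compared 17 (12.7%) were higher and 6 (4.48%) lower, beside 6.26% and 4.51% of all genes compared, and with floors 4 were higher and 0 lower. They were led by the manganese exporter Slc30a10 (1.82, at least 2.29-fold) and the mitochondrial carrier Slc25a39 (1.71, at least 2.76-fold), with a median of 0.14. Of 108 zinc finger genes 11 (10.2%) were higher and 5 (4.63%) lower, and with floors 1 was higher and 2 lower, with a median of 0.10 on deposited values. After Zfp768 came Zfp87 (1.58, at least 1.15-fold), while Zfp189 (-1.45) and Zfp365 (-1.26) were lowest. Of 30 chaperones 3 were higher and 3 lower, with the small heat shock gene Hspb1 (1.29) first, although its other probe set differed by -0.09. The replication-dependent histone H4c3 (1.30, 2.47-fold) and the immediate early factor Klf2 (1.34, at least 2.30-fold) were the single members past 2-fold of 13 and 18. Eif4a3, a helicase of the exon junction complex, was the 1 lower of 28 translation factors (-2.04, at least 1.81-fold). Of 18 Wnt pathway genes the transcription factor Tcf7l1 was lower (-1.46, at least 2.24-fold) and 0 were higher. None of 44 collagens and laminins, 14 proliferation genes, 13 proteasome subunits or 12 Notch pathway genes passed 2-fold, with medians of 0.12, 0.30, 0.19 and 0.05.

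**Figure D5:**
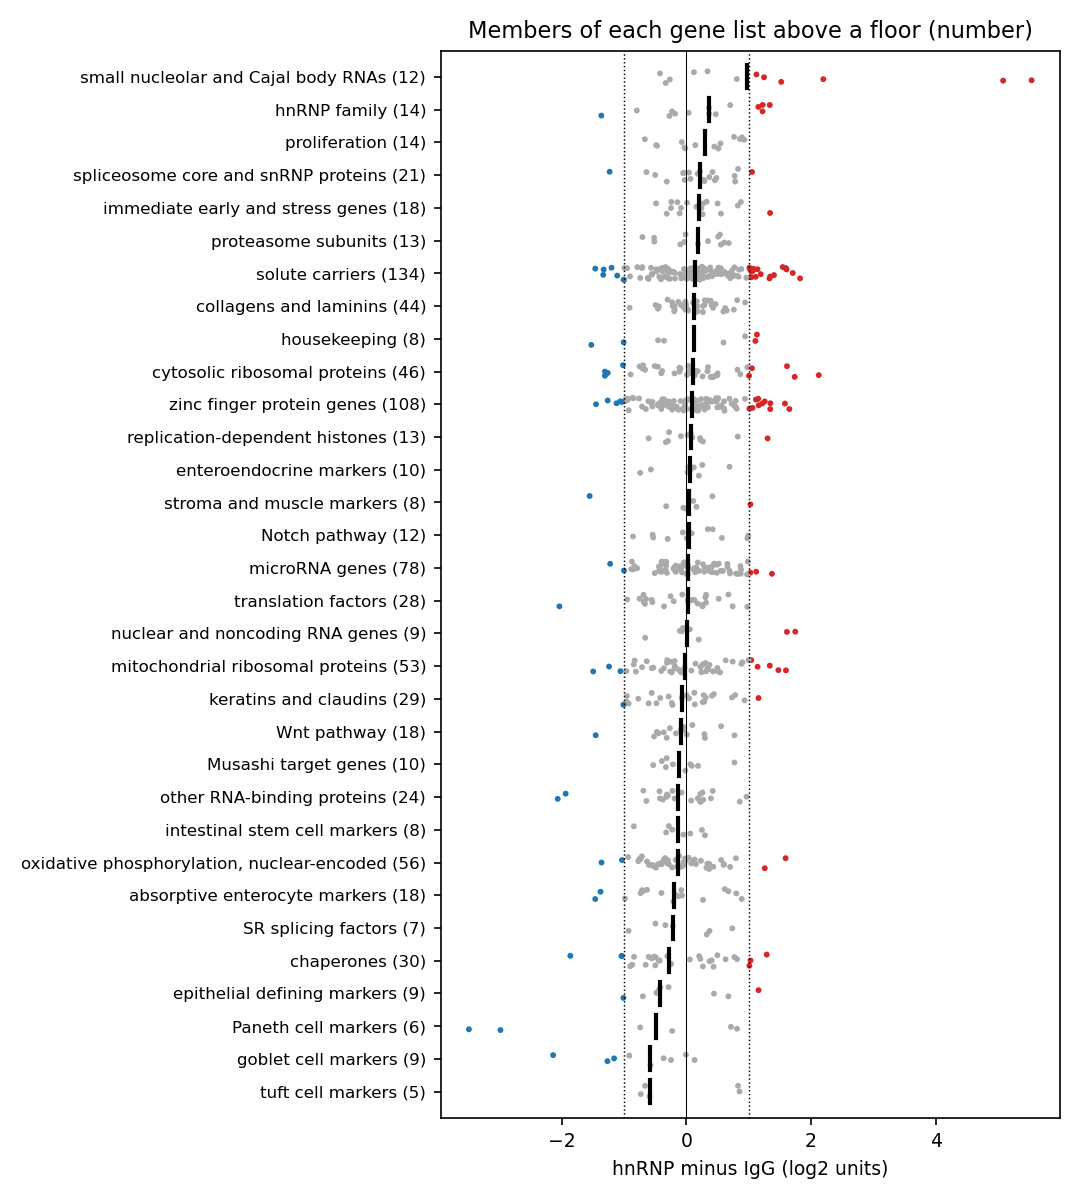
Difference hnRNP minus IgG in log2 units (x axis) for each compared member of the gene lists, 1 point per gene, with the median of a list as a bar and the number of compared members beside its name. The small nucleolar and Cajal body RNAs, with a median of 0.97, have the points furthest to the right, up to 5.54 for Snora3, and the Paneth cell markers those furthest to the left, down to -3.49 for Lyz1.

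MicroRNA genes were represented by 300 genes, of which 78 were compared, with a median of 0.03. Of the 78, 3 (3.85%) were higher and 2 (2.56%) lower, below the 6.26% and 4.51% of all genes compared. With floors 0 were past 2-fold. The array reads the transcript of a microRNA gene and not the mature strand, and 70 of the 78 had a mature sequence in the RefSeq table. The mature sequences of the 5 genes are shown from RefSeq (GRCm38.p6) to identify them, 5′ to 3′, with the seed (bases 2 to 8), the stretch that pairs with targets, in capitals.
mmu-miR-338-3p: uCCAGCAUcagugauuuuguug
mmu-miR-194-5p: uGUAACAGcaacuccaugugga
mmu-miR-501-3p: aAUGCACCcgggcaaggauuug
mmu-let-7g-5p: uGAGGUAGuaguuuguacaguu
mmu-miR-695: aGAUUGGGcauaggugacugaa
The 5 seeds are all different. The mature strands lie at chr11:120014781-120014802 on the minus strand (miR-338-3p), chr19:6264658-6264679 on the plus strand (miR-194-5p), chrX:7241270-7241291 on the minus strand (miR-501-3p), chr9:106178846-106178867 on the plus strand (let-7g-5p) and chr2:155356831-155356852 on the plus strand (miR-695).

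Mir338 read 5.06 on input, 4.59 on IgG, 5.66 on Msi1 and 5.96 on hnRNP (1.37, at least 1.62-fold higher). Mir194-2, of a family known from gut epithelium, read 5.42, 4.94, 5.53 and 6.06 (1.12, at least 1.73-fold higher). Its other locus, Mir194-1, which shares the miR-194-5p seed, read 4.58 on IgG and 4.23 on hnRNP, below both floors. Mir501 read 3.93 on input, 5.02 on IgG, 4.30 on Msi1 and 6.05 on hnRNP (1.03, at least 1.72-fold higher). Mirlet7g read 3.83 on input, 6.15 on IgG, 4.93 on Msi1 and 5.15 on hnRNP (-1.0, at least 1.98-fold lower). Of the genes that share its seed, 3 were compared and lay within 2-fold, Mirlet7a-1 at -0.09, Mirlet7e at 0.21 and Mirlet7i at -0.00. The others, Mirlet7f-2 (-1.14), Mir98 (-0.75), Mirlet7f-1 (-0.73), Mirlet7d (-0.70) and Mirlet7c-1 (-0.67), were below both floors, so no direction is read from them. Mir695 read 3.57, 5.55, 5.20 and 4.33 (-1.22, at least 1.30-fold lower).

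The brightest signal on the hnRNP array was mostly shared with IgG. With small nucleolar and Cajal body RNAs left out, of which Scarna17 at 10.58 would rank among them, 1 of the 10 brightest genes on hnRNP (Rpl27) was past 2-fold. After Rpph1 and Rn7sk came Aldh3b3, an aldehyde dehydrogenase gene, at 10.36 on hnRNP with a difference of 0.04, the nucleosome-binding Hmgn2 at 9.99 (0.28), Tpt1, a translationally controlled protein, at 9.94 (0.67), and Rpl24 at 9.78 (0.09). Myo18b, an unconventional myosin, read 9.64 (0.12), Atp5g2, an ATP synthase subunit, 9.63 (0.37), and Rpl38 9.59 (0.87).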

How the data were processed

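The authors deposited a log2 value for each probe set and array, which was used unchanged. Per the submitters' processing notes the tool was affy, with no version. How background was corrected, how arrays were normalized and the base of the logarithm were not given in the sources used here. The range of 1.07 to 14.3 was read as base 2, on which every fold rests. The standard deviation over all probe sets was 2.01 on input, 1.17 on IgG, 1.38 on Msi1 and 1.20 on hnRNP, so the arrays had not been brought to equal distributions at this level. Of 34760 probe sets, 21640 with 1 gene symbol were used, and 954 genes with several were read by that of the highest mean signal across arrays. Floors came from 1208 receptor probe sets.

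Named genes are the 15 highest and 10 lowest by the floored difference, the 8 highest and 5 lowest above both floors, the 10 with the largest excess over every other array, the 10 brightest on hnRNP, up to 2 highest and 2 lowest of each list, and all compared hnRNP genes. Rankings left out small nucleolar and Cajal body RNAs, microRNAs, receptors, clones and predicted genes. Further genes in the text, such as the other bright input genes and the other small RNAs, were chosen after their values were seen. The members and the 37 lists were chosen with earlier results of these data known (468 members sought by symbol, 55 not found). No p-values were computed. The steps were tested on simulated data. Alternatives covered scaling, floor, threshold and choice of probe set. Python 3.11.15, pandas 2.3.3, numpy 2.4.6, statsmodels 0.14.6 and matplotlib 3.10.9 were used.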

Additional observations from a re-analysis of the deposited data

Results flagged for a closer look

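Probe sets outside the gene comparison also showed differences above the floors. Of 4138 probe sets with no gene symbol here that passed a floor on hnRNP or IgG, 808 (19.5%) were at least 2-fold higher in hnRNP and 709 (17.1%) lower. With floors, 364 were higher and 337 lower, and the range was -6.33 to 5.78 with a median of 0.07. Of 523 probe sets with several symbols, 79 (15.1%) were higher and 67 (12.8%) lower, and with floors 38 were higher and 44 lower, with a median of 0.04. Both shares are above the 6.26% and 4.51% of single-symbol genes, in both directions, and what these probe sets read was not analysed here.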

How the results depend on the processing

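The 496 higher and 357 lower genes (135 and 93 with floors) became 1015 and 843 (310 and 341) after quantile normalization of the 4 arrays, 263 and 152 (55 and 29) with floors set by the 99th percentile, 794 and 760 with no floor, and 88 and 57 with detection required on both arrays, with or without floors. A threshold of 1.5-fold gave 1466 and 1123 (625 and 562) and one of 3-fold gave 69 and 47 (21 and 10). Median centring, quantile normalization of the 2 arrays, loess (span 0.4), averaging a gene's probe sets and the probe set brightest on input gave 458 to 514 higher and 333 to 379 lower. No scaling moved the median of all genes by more than 0.024. With no floor the Paneth median was 0.33. With the mean of probe sets Ccl19 was at 0.59, and with the probe set brightest on input Polr2c was at -0.87, Rpl21 at -0.059 and Cks2 at -0.0077, where another probe set was read. Of the other differences of named genes under the alternatives, 212 kept their direction and side of 2-fold and 8 lost the 2-fold call. Many of the 212 could not change. The floor settings leave a gene's deposited difference as it is, and the probe set settings do so for genes with 1 probe set. Of the other list and group medians 251 moved by at most 0.3 and 12 by more. Rbm25 was at 0.26 with the probe set brightest on input. The small RNA median of 0.97 became 1.37 after quantile normalization of the 4 arrays and 0.34 with the 99th percentile floor. With that floor the chaperone median went from -0.27 to 0.26 and that of SR factors from -0.22 to 0.37. The housekeeping median of 0.12 became -0.41 with the probe set brightest on input. The array's signal over its floor is the limit of depth. No paired analysis was possible because each group had 1 array, and none could be left out in turn.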

Other observations

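The lowest of all differences was that of a clone-named gene outside the ranking, A530040E14Rik, which read 3.81 on input, 6.41 on IgG, 5.44 on Msi1 and 2.12 on hnRNP (-4.29, or -1.25 with floors).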
